A study of Mus musculus with 10 samples.

Results

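The 55 genes described here encode the machinery that condenses chromosomes, attaches them to the mitotic spindle and divides the cell: mitotic kinases, the spindle checkpoint, the outer kinetochore, mitotic kinesins, cytokinesis proteins and condensin. They were chosen by name as rows of the deposited expression table, and all 55 were found among its 52097 genes. RNA was sequenced from bone marrow haematopoietic stem cells of mice, about which the labels give 2 genotypes: 5 KO samples, titled Dhx16_CKO, in which Dhx16 was knocked out, and 5 WT samples, titled Dhx16_fl. Dhx16 is an RNA helicase that acts on the spliceosome. What other alleles either group carried, how and when Dhx16 was deleted, the age and sex of the mice and whether each sample was a separate animal are not given in the sources used here. Every p-value therefore measures the spread between these samples, which may be in part technical. Cells were sorted as lineage-negative, Sca-1+, c-Kit+, CD48-, CD150+ and amplified with a Smart-Seq kit for polyadenylated RNA.

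Haematopoietic stem cells in adult marrow are mostly quiescent, and the mitotic genes are transcribed late in the cell cycle, from S phase into mitosis. Their promoters often carry the CHR element (cell cycle genes homology region) and CCAAT boxes. The MuvB complex binds CHR elements, repressing the genes with p130 and E2F4 in resting cells and activating them with B-MYB and FOXM1 in G2. Some of the proteins are then removed at mitotic exit by the anaphase-promoting complex (APC/C).

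Values are FPKM, fragments scaled to transcript length and to the mapped fragments of the library, so levels of different genes are compared per length. Library values are always given in the order CKO7, CKO8, CKO9, CKO12 and CKO13 for KO, and WT2, WT3, WT4, WT5 and WT6 for WT. These library numbers differ from those in the sample titles. A difference is the KO mean minus the WT mean of log2(FPKM + 1), which understates the change of genes at low level, and a gene is called when limma's adjusted p is under 0.05 over all 14007 genes with a mean of 1 FPKM or more over the 10 libraries. All 55 mitotic genes passed this filter. The depth of the libraries is unknown, since the table gives no counts per library.

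Dhx16 itself was at 10.9, 10.6, 8.8, 7.1 and 10.1 FPKM in KO libraries, against 22.6, 20.5, 14.6, 15.5 and 14.3 FPKM in WT libraries, with no overlap between the groups (difference -0.81, limma adjusted p = 0.0015). Whether these reads cover the deleted part is not known. The markers of stem cells Ly6a (which encodes Sca-1) and Kit were present at 203.1 ± 36.4 and 123.4 ± 36.95 FPKM in KO and 196.3 ± 77.5 and 153.8 ± 26.1 FPKM in WT libraries (mean ± SD, n = 5 each, as in all such values below). Granulocyte and bone matrix transcripts were also abundant, in unequal amounts. The 8 granulocyte markers summed to 8546 to 40932 FPKM in KO and 9657 to 74372 FPKM in WT libraries. The 6 bone matrix markers summed to 4549 to 47778 FPKM in KO and 3180 to 65870 FPKM in WT libraries.

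Mitotic genes were higher in KO stem cells as a group, with a single gene lower. Of the 55, 50 were called higher in KO, where 12.6% of all genes tested were called higher. Pttg1, which encodes securin, was called lower, where 33.8% of all genes tested were called lower. Cdc25b, Incenp, Anln and Mki67 were not called. The median difference over the 55 genes was 0.90, beside a median of -0.26 over all genes tested. At least a 2-fold higher mean FPKM in KO was shown by 25 of the 55, and the share of all genes at that threshold was not computed. In 36 of the genes all 5 KO libraries were above all 5 WT libraries, a pattern shown by 7.45% of all genes tested. In Pttg1 all 5 KO libraries were below all 5 WT libraries, a pattern shown by 24.0% of all genes tested. Ranked by the difference among the 14007 genes tested, 37 of the 55 were within the highest 1000. In bulk RNA, a larger share of cycling cells and more mitotic RNA in each cycling cell cannot be told apart.

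**Figure D1:**
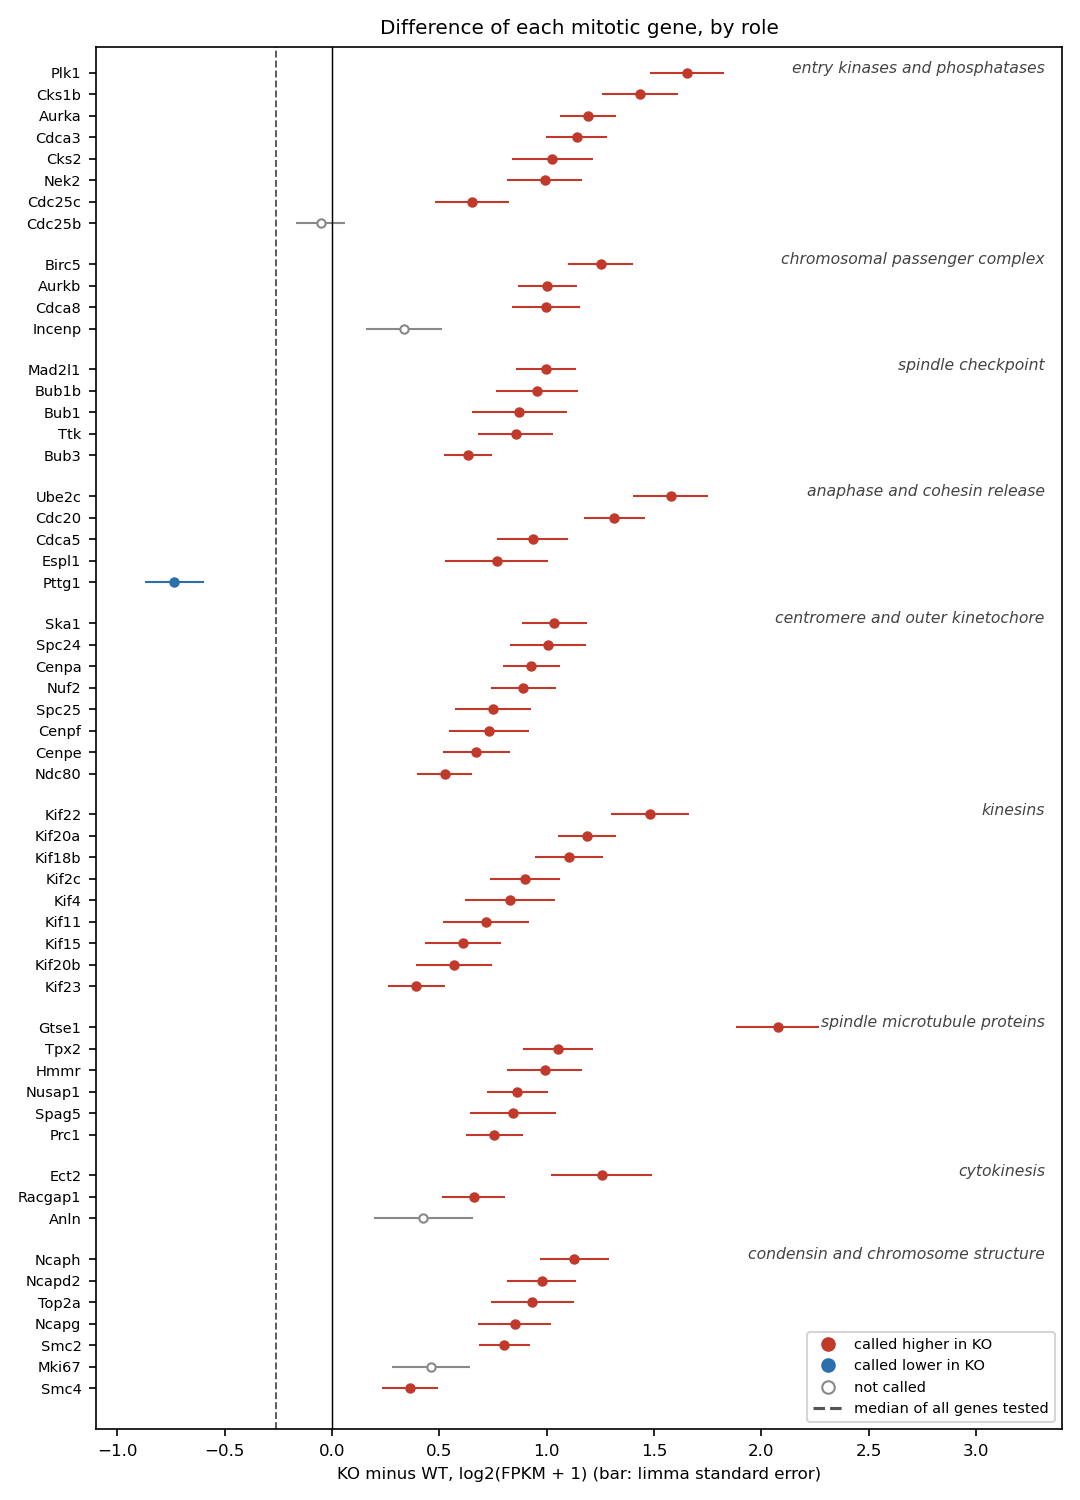
Difference between KO and WT (horizontal axis, log2(FPKM + 1), KO minus WT) for each of the 55 mitotic genes, grouped by role, with limma standard errors as bars. Of the 55 genes, 50 are called higher, Pttg1 alone is called lower, and the dashed line marks the median of all genes tested, -0.26.

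The position of the zero line depends on the scaling between libraries. With the values as deposited, 1771 genes were called higher and 4731 lower in KO. With equal library totals these numbers were 1277 and 5732, with upper-quartile factors 2620 and 3725, with median-of-ratios factors 3172 and 2829, and with the KO libraries scaled to the authors' fold changes 3650 and 1723. In that order, the median difference over all genes was -0.38, -0.14, -0.05 and 0.07. The median over the 55 mitotic genes was 0.77, 1.03, 1.13 and 1.28, and 46, 52, 53 and 54 of them were called higher, where 9.12%, 18.7%, 22.6% and 26.1% of all genes were. Under all 4 scalings 46 of the 50 stayed higher. Pttg1 was called lower under the first 3 of them, where 40.9%, 26.6% and 20.2% of all genes were, and not under the authors' scaling, where 12.3% were. In the authors' deposited table, 54 of the 55 were higher and Pttg1 was lower at an adjusted p under 0.05, where 17.1% of 23405 genes were higher and 11.5% lower. The median log2 fold change of the 55 genes in the authors' deposited table was 1.38, beside 0.09 for the genes tested here.

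Promoter letters were read because so many of these genes moved together. RefSeq windows on the GRCm38.p6 build (the same assembly as mm10), from 250 bases before to 50 bases after a gene's start, were at hand for 47 of the 55 genes. For 5 of these (Cdca3, Cdca8, Kif2c, Kif4 and Pttg1) the window lay wholly inside the gene as GENCODE annotates it, so it held nothing upstream of the outermost annotated start, and its letters say nothing of that region. The CHR letters TTTGAA, on either strand, were in the window of 35 of these 47 genes (74.5%), where 20.2% of 27025 genes with a window held them. Within 50 bases of the start, 32 of the 47 (68.1%) held the CHR letters, against 5.72% of all genes. CCAAT, on either strand, was in 35 of the 47 windows (74.5%) and in 41.1% of all genes. CHR and CCAAT were in the same window for 29 of the 47 genes (61.7%) and for 7.97% of all genes. The E2F letters GGCGGGAA were in 0 of the 47 windows and in 2.52% of all genes, which says only that these exact letters were not in these windows. Letters that match are a description, and no binding was measured.

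The windows of the 5 genes with the largest differences are printed first, then that of Cdc25b, the gene with the difference nearest to 0. They span chr15:85859457-85859756 (plus strand) for Gtse1, chr7:122159185-122159484 (plus) for Plk1, chr2:164769679-164769978 (plus) for Ube2c, chr7:127042371-127042670 (minus) for Kif22, chr3:89418242-89418541 (minus) for Cks1b and chr2:131186698-131186997 (plus) for Cdc25b. Each reads 5′ to 3′ along the gene's strand, and capitals mark CHR and CCAAT letters on either strand.
Gtse1: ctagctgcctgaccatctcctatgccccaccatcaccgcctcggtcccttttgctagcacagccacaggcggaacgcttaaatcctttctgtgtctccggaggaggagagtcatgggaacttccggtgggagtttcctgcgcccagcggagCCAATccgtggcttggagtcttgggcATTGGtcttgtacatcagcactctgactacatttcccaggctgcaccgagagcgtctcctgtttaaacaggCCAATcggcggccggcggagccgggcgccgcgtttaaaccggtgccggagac
Plk1: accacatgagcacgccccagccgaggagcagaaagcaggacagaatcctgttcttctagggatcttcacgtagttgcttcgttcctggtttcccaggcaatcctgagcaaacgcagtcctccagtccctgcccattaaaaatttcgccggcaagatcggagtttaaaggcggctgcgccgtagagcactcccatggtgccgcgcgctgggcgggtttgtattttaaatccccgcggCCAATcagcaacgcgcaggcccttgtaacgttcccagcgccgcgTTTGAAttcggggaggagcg
Ube2c: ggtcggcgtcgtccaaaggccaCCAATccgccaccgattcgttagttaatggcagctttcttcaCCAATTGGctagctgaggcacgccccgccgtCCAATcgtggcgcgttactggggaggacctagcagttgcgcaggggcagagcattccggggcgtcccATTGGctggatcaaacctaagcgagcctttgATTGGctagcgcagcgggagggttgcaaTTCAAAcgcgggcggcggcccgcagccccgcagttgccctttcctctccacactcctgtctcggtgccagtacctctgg
Kif22: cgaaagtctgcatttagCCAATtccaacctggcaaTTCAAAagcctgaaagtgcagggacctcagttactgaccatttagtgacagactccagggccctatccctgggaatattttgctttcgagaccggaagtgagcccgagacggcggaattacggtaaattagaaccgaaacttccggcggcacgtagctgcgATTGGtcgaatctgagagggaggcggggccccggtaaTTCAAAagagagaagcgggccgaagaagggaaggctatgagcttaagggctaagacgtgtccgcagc
Cks1b: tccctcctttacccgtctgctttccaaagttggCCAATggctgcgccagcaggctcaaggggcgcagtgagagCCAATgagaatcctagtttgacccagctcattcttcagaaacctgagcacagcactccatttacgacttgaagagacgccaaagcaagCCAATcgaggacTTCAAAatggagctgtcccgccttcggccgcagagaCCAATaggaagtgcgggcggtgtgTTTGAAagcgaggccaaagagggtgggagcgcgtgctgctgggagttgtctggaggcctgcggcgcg
Cdc25b: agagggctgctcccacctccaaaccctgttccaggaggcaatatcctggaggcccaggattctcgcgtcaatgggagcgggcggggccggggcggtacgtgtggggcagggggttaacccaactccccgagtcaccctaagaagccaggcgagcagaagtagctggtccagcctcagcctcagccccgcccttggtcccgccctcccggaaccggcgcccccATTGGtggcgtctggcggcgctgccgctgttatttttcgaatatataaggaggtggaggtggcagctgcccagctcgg
Plk1, Ube2c, Kif22 and Cks1b held both motifs. Gtse1, with the largest difference, held CCAAT and no CHR letters. Cdc25b held a single CCAAT match and no CHR letters. The windows of Anln and Mki67, which were not called either, held CHR letters. The windows of Birc5, Mad2l1, Ncaph, Nuf2 and Nusap1, all called higher, held neither motif.

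Kinases and phosphatases that start mitosis were higher, with Cdc25b as the exception. Of 8 genes of mitotic entry, 7 were called higher, with a median difference of 1.08. Plk1 (chromosome 7, 122159439 to 122169873), which encodes Polo-like kinase, was at 75.8, 88.7, 81.3, 59.7 and 82.5 FPKM in KO libraries, against 23.5, 30.6, 21.9, 15.8 and 30.3 FPKM in WT libraries. Every KO library was above every WT library, with CKO12 the lowest of the KO and WT5 the lowest of the WT libraries (difference 1.65, SE 0.17, limma adjusted p = 5.36e-05). The Cks genes encode small adaptors that bind cyclin-dependent kinases and help them to phosphorylate substrates repeatedly. Cks1b averaged 224.6 ± 16.3 FPKM in KO and 85.3 ± 25.5 FPKM in WT libraries (difference 1.43, limma adjusted p = 0.000111). Cks2 had the highest level of all 55 genes, at 331.8, 334.5, 247.3, 289.7 and 298.5 FPKM in KO libraries, against 148.2, 152.7, 234.2, 104.5 and 120.1 FPKM in WT libraries. Its groups did not overlap, although WT4 came close to the lowest KO library, CKO9 (difference 1.03, limma adjusted p = 0.00109). Aurka, the centrosome kinase, averaged 46.3 ± 6.896 FPKM in KO and 19.7 ± 2.603 FPKM in WT libraries. Cdca3, an adaptor for degradation of the Cdk1 inhibitor Wee1, averaged 51.6 ± 4.004 and 23.3 ± 4.795 FPKM in KO and WT. The centrosome kinase gene Nek2 averaged 18.1 ± 3.69 and 8.62 ± 1.84 FPKM in KO and WT, and all 3 were called higher without overlap.

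The CDC25 phosphatases remove the inhibitory phosphates from Cdk1, and their genes differed from each other. Cdc25c averaged 10.03 ± 2.42 FPKM in KO and 5.91 ± 0.922 FPKM in WT libraries and was called higher (difference 0.65, limma adjusted p = 0.00842), with CKO12, at 6.17 FPKM, inside the WT range. Cdc25b was at 12.5, 12.4, 12.6, 9.13 and 10.1 FPKM in KO libraries, against 12.1, 11.1, 10.8, 12.1 and 12.5 FPKM in WT libraries. CKO7, CKO8 and CKO9 lay at or near the top of the WT range, while CKO12 and CKO13 lay below it (difference -0.05, SE 0.11, limma adjusted p = 0.719). Its direction depended on the scaling: the difference was 0.080, 0.19 and 0.32 with upper-quartile, median-of-ratios and authors' scaling, and it was called higher under the last of these (limma adjusted p = 0.0472). In the authors' deposited table its log2 fold change was 0.47 (adjusted p = 0.0116). Cdc25b overlaps Spef1 on the other strand, and the strand setting of the counting is not given in the sources used here.

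**Figure D2:**
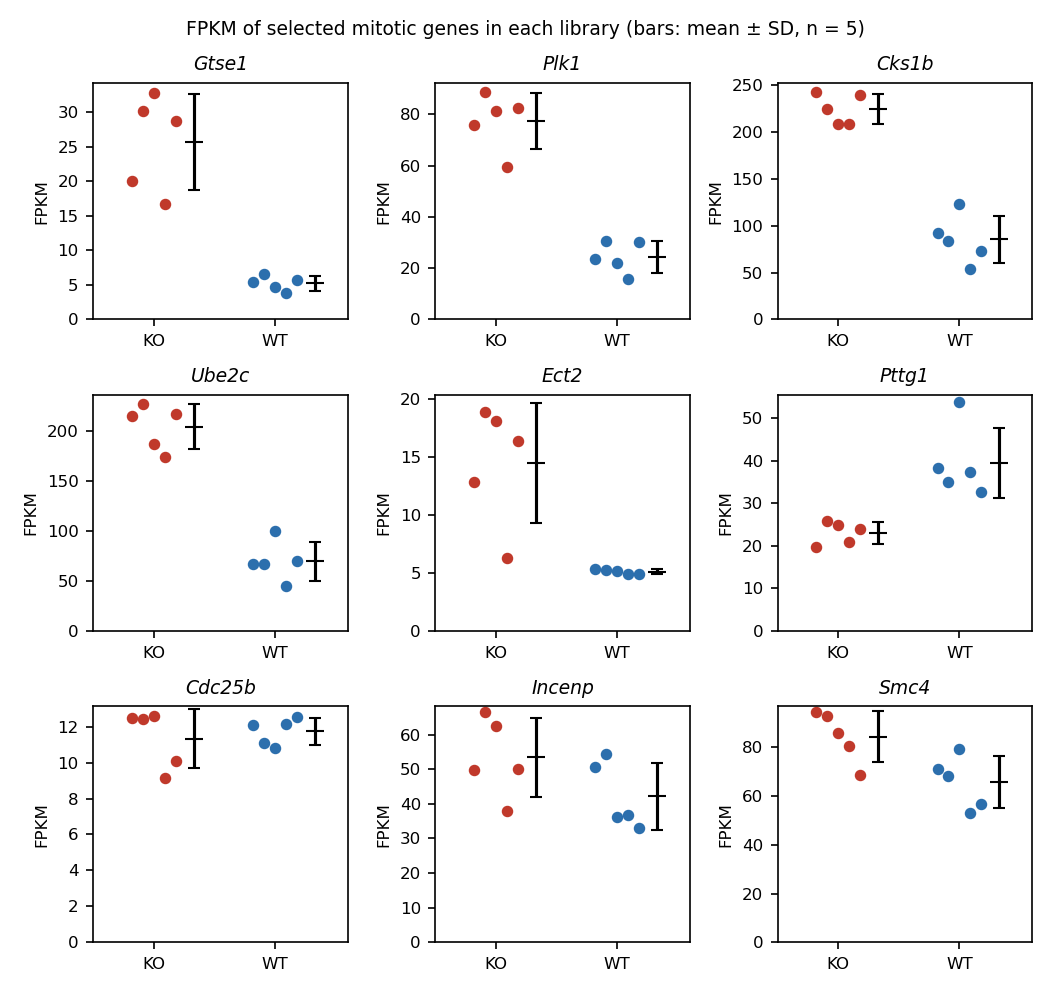
FPKM (vertical axes, each starting at 0) of 9 mitotic genes in the 5 KO (left, red) and 5 WT (right, blue) libraries, with mean and SD beside the points, in library order from left to right. Gtse1, Plk1, Cks1b, Ube2c and Ect2 are higher in all KO libraries, Pttg1 is lower in all of them, and Cdc25b, Incenp and Smc4 overlap.

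The chromosomal passenger complex, which corrects faulty attachments at centromeres and then moves to the midzone, was higher in 3 of its 4 genes. Birc5, which encodes survivin, was at 128.6, 137.4, 114.7, 102.8 and 120.6 FPKM in KO libraries, against 48.96, 57.4, 60.6, 33.6 and 54.1 FPKM in WT libraries. All KO values were far above the WT values (difference 1.25, SE 0.15, limma adjusted p = 0.000101). The kinase subunit gene Aurkb averaged 63.6 ± 9.37 FPKM in KO and 31.3 ± 5.08 FPKM in WT libraries. The borealin gene Cdca8 averaged 73.9 ± 10.6 FPKM in KO and 36.8 ± 7.45 FPKM in WT libraries, and neither Aurkb nor Cdca8 overlapped between groups. Incenp, the scaffold that binds the other subunits, was at 49.9, 66.5, 62.5, 38.02 and 50.1 FPKM in KO libraries, against 50.7, 54.4, 36.2, 36.7 and 32.97 FPKM in WT libraries. WT2 and WT3 were above 3 of the KO libraries, and Incenp was not called (difference 0.33, SE 0.18, limma adjusted p = 0.14). It was called higher with upper-quartile, median-of-ratios and authors' scaling, at differences of 0.48, 0.59 and 0.73. Its log2 fold change in the authors' deposited table was 0.78.

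All 5 spindle checkpoint genes, whose proteins hold back anaphase until every kinetochore is attached, were called higher, with a median difference of 0.87. Mad2l1, which encodes the checkpoint effector Mad2, was at 51.9, 57.5, 56.3, 44.1 and 49.7 FPKM in KO libraries, against 28.2, 26.3, 29.9, 17.5 and 27.2 FPKM in WT libraries. The groups did not overlap, and WT5 was again the lowest (difference 0.996, SE 0.14, limma adjusted p = 0.00024). Bub3, the adaptor of the Bub kinases, had the highest level of the 5 and the smallest difference, at 104.9, 124.6, 121.5, 97.3 and 111.7 FPKM in KO libraries, against 80.6, 68.5, 82.6, 67.6 and 60.9 FPKM in WT libraries. Its lowest KO library, CKO12, was still above its highest WT library, WT4 (difference 0.63, SE 0.11, limma adjusted p = 0.000896). The kinase genes Bub1 and Ttk averaged 12.5 ± 3.45 and 10.4 ± 2.57 FPKM in KO, and 6.31 ± 1.62 and 5.24 ± 0.923 FPKM in WT libraries. Bub1b, which encodes the APC/C inhibitor BubR1, averaged 34.2 ± 8.49 FPKM in KO and 16.98 ± 3.72 FPKM in WT libraries. In Bub1 and Bub1b the library CKO12 lay within the WT range.

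Anaphase starts when APC/C with its activator Cdc20 marks securin and cyclin B for destruction, which frees separase to cut cohesin. Of the 5 genes for this step 4 were higher and Pttg1 was lower. Ube2c, the ubiquitin-conjugating enzyme of APC/C, was at 214.9, 227.4, 187.4, 174.4 and 217.4 FPKM in KO libraries, against 66.8, 66.6, 100.3, 44.9 and 69.6 FPKM in WT libraries. Its lowest KO library was well above its highest WT library, WT4 (difference 1.58, SE 0.17, limma adjusted p = 6.92e-05). Cdc20 averaged 157.6 ± 18.4 FPKM in KO and 63.2 ± 10.8 FPKM in WT libraries without overlap, with CKO12, at 125.3 FPKM, apart from the other KO libraries. Cdca5, which encodes sororin, the protector of cohesin, averaged 34.1 ± 5.71 FPKM in KO and 17.5 ± 4.05 FPKM in WT libraries. Espl1, which encodes separase, averaged 10.1 ± 3.23 FPKM in KO and 5.41 ± 1.55 FPKM in WT libraries (difference 0.77, limma adjusted p = 0.0205). CKO12, at 4.88 FPKM, was inside the WT range. The call of Espl1 was lost without CKO7 (difference 0.66, limma adjusted p = 0.0525) and with equal library totals (difference 0.64, limma adjusted p = 0.0571).

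Pttg1 (chromosome 11, 43420250 to 43426251, minus strand) encodes securin, the inhibitor and chaperone of separase. It was at 19.8, 25.9, 24.8, 20.9 and 23.97 FPKM in KO libraries, against 38.2, 35.1, 53.8, 37.4 and 32.7 FPKM in WT libraries. All KO libraries were below all WT libraries, and WT4 was far above the other WT libraries (difference -0.73, SE 0.14, limma adjusted p = 0.00116). The call held without any single library and under 3 of the 4 scalings, and was lost with the authors' scaling (difference -0.35, limma adjusted p = 0.0648). In the authors' deposited table Pttg1 had a log2 fold change of -0.45 (adjusted p = 0.0101). Pttg1 overlaps no other annotated gene. The ratio of Pttg1 to Espl1 within a library, which does not depend on the scaling between libraries, was 1.497, 2.17, 2.603, 4.28 and 2.16 in KO libraries, against 5.42, 4.94, 12.5, 7.87 and 8.56 in WT libraries. The ratio did not overlap between the groups, but Pttg1 alone did not overlap either, and the rise of Espl1 enters the ratio. The pair was chosen after the values were seen, so the ratio is no separate evidence about Pttg1.

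All 8 genes of the centromere and outer kinetochore were called higher, with a median difference of 0.82. Ska1, part of the complex that follows shrinking microtubules, was at 6.08, 7.8, 7.68, 6.47 and 7.36 FPKM in KO libraries, against 2.54, 4.68, 2.63, 2.53 and 2.62 FPKM in WT libraries. The groups did not overlap, and WT3 stood above the other WT libraries (difference 1.04, SE 0.15, limma adjusted p = 0.000298). The NDC80 complex is the main microtubule binder of the kinetochore and is built of equal numbers of its 4 subunits. Ndc80 had the smallest difference of the 8 genes, at 17.7, 20.8, 19.1, 13.9 and 17.8 FPKM in KO libraries, against 12.6, 12.1, 14.2, 10.02 and 11.4 FPKM in WT libraries. Only CKO12 fell within the WT range (difference 0.52, SE 0.13, limma adjusted p = 0.00536). Its partner Nuf2 averaged 22.3 ± 4.44 FPKM in KO and 11.4 ± 1.54 FPKM in WT libraries. Spc24 averaged 54.97 ± 8.33 FPKM in KO and 27.4 ± 6.99 FPKM in WT, and Spc25 averaged 47.3 ± 8.01 FPKM in KO and 28.1 ± 6.84 FPKM in WT libraries. Cenpa, the histone H3 variant that marks centromeres, averaged 123.8 ± 16.7 FPKM in KO and 64.7 ± 9.42 FPKM in WT libraries (difference 0.93, limma adjusted p = 0.000262). The kinetochore kinesin gene Cenpe averaged 5.46 ± 0.992 FPKM in KO and 3.06 ± 0.699 FPKM in WT libraries. The outer corona gene Cenpf averaged 11.5 ± 3.09 FPKM in KO and 6.37 ± 1.01 FPKM in WT libraries.

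All 9 mitotic kinesin genes were called higher, with a median difference of 0.83 and a wide range. Kif22, whose protein pushes chromosome arms toward the spindle equator, was at 77.5, 101.7, 88.7, 62.5 and 80.4 FPKM in KO libraries, against 33.8, 30.8, 34.3, 17.6 and 29.5 FPKM in WT libraries. The lowest KO library was well above the highest WT library (difference 1.48, SE 0.18, limma adjusted p = 0.000105). Kif20a, a midzone kinesin, averaged 29.5 ± 4.58 FPKM in KO and 12.3 ± 1.796 FPKM in WT libraries. Kif18b and Kif2c, which shorten microtubules, averaged 13.5 ± 2.91 and 15.6 ± 3.86 FPKM in KO, and 5.67 ± 0.913 and 7.73 ± 0.975 FPKM in WT libraries. In Kif22, Kif20a, Kif18b and Kif2c the groups did not overlap, while the other 5 kinesins overlapped. Kif11, the motor that separates the spindle poles, averaged 22.96 ± 6.37 FPKM in KO and 13.2 ± 2.05 FPKM in WT libraries. Kif15, its partner in keeping the poles apart, averaged 24.8 ± 2.98 FPKM in KO and 16.3 ± 4.33 FPKM in WT libraries. The chromokinesin gene Kif4 averaged 8.71 ± 2.64 FPKM in KO and 4.33 ± 0.949 FPKM in WT libraries.

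Kif23, the motor subunit of centralspindlin, had the smallest difference among the kinesins, at 34.01, 41.9, 39.4, 31.2 and 36.7 FPKM in KO libraries, against 26.9, 27.4, 20.4, 31.9 and 32.8 FPKM in WT libraries. CKO12 was below WT5 and WT6, and unlike in most of these genes WT5 was not low (difference 0.39, SE 0.13, limma adjusted p = 0.0311). The call of Kif23 was lost without any one of WT2, WT3, WT4, CKO8, CKO9 and CKO13 (limma adjusted p = 0.0571, 0.0549, 0.0558, 0.0761, 0.0625 and 0.0556) and with equal library totals (0.23). Kif20b averaged 17.7 ± 3.66 FPKM in KO and 11.6 ± 2.58 FPKM in WT libraries (difference 0.57, limma adjusted p = 0.0199). Its call was lost without CKO8 (limma adjusted p = 0.0516) and with equal library totals (0.0712).

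Spindle-associated proteins included the gene with the largest difference of all 55. Gtse1 (chromosome 15, 85859745 to 85876573) encodes a protein of microtubule plus ends that is expressed in G2 and S phase and also restrains p53. It was at 20.1, 30.2, 32.8, 16.8 and 28.7 FPKM in KO libraries, against 5.4, 6.6, 4.67, 3.76 and 5.74 FPKM in WT libraries. The lowest KO library, CKO12, was still well above the highest WT library, WT3 (difference 2.08, SE 0.19, limma adjusted p = 3.37e-05), and Gtse1 ranked 54 of the 14007 genes tested. All 6 genes of this role were called higher, with a median difference of 0.93. Tpx2, which recruits and activates Aurora A, averaged 34.2 ± 6.88 FPKM in KO and 15.9 ± 2.85 FPKM in WT libraries. Hmmr, a spindle pole protein, averaged 15.3 ± 3.13 FPKM in KO and 7.21 ± 1.53 FPKM in WT libraries. Nusap1, which bundles microtubules around chromosomes, averaged 23.5 ± 4.28 FPKM in KO and 12.4 ± 1.82 FPKM in WT libraries. Spag5, a spindle and kinetochore protein also known as astrin, averaged 15.5 ± 3.71 FPKM in KO and 8.102 ± 1.82 FPKM in WT libraries. Prc1, which crosslinks the midzone microtubules, had the smallest difference of this role, at 40.8, 42.3, 46.6, 29.9 and 40.3 FPKM in KO libraries, against 25.4, 26.04, 23.7, 18.3 and 22.6 FPKM in WT libraries. Its groups did not overlap (difference 0.76, SE 0.13, limma adjusted p = 0.00086).

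Of the 3 cytokinesis genes, Ect2 and Racgap1 were called higher and Anln was not called. Ect2, the exchange factor that activates RhoA at the division plane, was at 12.8, 18.9, 18.1, 6.29 and 16.4 FPKM in KO libraries, against 5.38, 5.22, 5.14, 4.91 and 4.95 FPKM in WT libraries. The WT libraries lay close together while the KO libraries spread widely, with CKO12 the nearest to the WT values (difference 1.26, SE 0.23, limma adjusted p = 0.00117). Racgap1, the other subunit of centralspindlin, averaged 42.1 ± 8.19 FPKM in KO and 26.1 ± 4.01 FPKM in WT libraries. Anln, which encodes the contractile ring scaffold anillin, was at 9.84, 10.8, 11.98, 4.17 and 9.02 FPKM in KO libraries, against 7.48, 7.79, 4.83, 6.32 and 5.22 FPKM in WT libraries. The other KO libraries were above all WT libraries, but CKO12 was below all of them (difference 0.43, SE 0.23, limma adjusted p = 0.151). Without CKO12 the difference of Anln was 0.65 and it was called higher (limma adjusted p = 0.0053). With all libraries it was called higher with median-of-ratios and authors' scaling (0.65 and 0.79, limma adjusted p = 0.0303 and 0.0195). It was not called with equal library totals or upper-quartile scaling (0.30 and 0.55). Its log2 fold change in the authors' deposited table was 0.99.

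Condensin I and the other chromosome structure genes were higher in 6 of 7 cases, with a median difference of 0.85. Ncaph, which encodes the kleisin subunit that closes the condensin I ring, was at 24.9, 32.5, 31.3, 20.1 and 27.4 FPKM in KO libraries, against 14.1, 13.9, 11.4, 8.36 and 11.9 FPKM in WT libraries. All KO libraries were above all WT libraries (difference 1.13, SE 0.16, limma adjusted p = 0.000253). The other regulatory subunits Ncapd2 and Ncapg averaged 71.2 ± 15.3 and 16.4 ± 3.35 FPKM in KO, and 35.3 ± 5.53 and 8.64 ± 1.63 FPKM in WT libraries. Smc2 and Smc4 encode the ATPase pair shared by condensin I and II. Smc2 averaged 63.4 ± 5.95 FPKM in KO and 36.1 ± 5.45 FPKM in WT libraries (difference 0.80, limma adjusted p = 0.000313). Smc4 was at 94.3, 92.7, 85.7, 80.3 and 68.4 FPKM in KO libraries, against 70.96, 68.3, 79.2, 53.05 and 56.5 FPKM in WT libraries. CKO13 was within the WT range, and the difference was 0.36 (SE 0.13, limma adjusted p = 0.039). The call of Smc4 was lost without any one of WT3, WT5, WT6, CKO7, CKO8, CKO9 and CKO12 (limma adjusted p = 0.0541, 0.0942, 0.0894, 0.0934, 0.0888, 0.0681 and 0.0551) and with equal library totals (0.183).

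Top2a, the topoisomerase that untangles sister chromatids, averaged 81.8 ± 19.7 FPKM in KO and 41.8 ± 8.05 FPKM in WT libraries (difference 0.93, limma adjusted p = 0.00221). Mki67, which encodes the proliferation antigen Ki-67, was at 8.79, 10.8, 10.2, 5.46 and 9.71 FPKM in KO libraries, against 7.14, 7.7, 5.28, 4.65 and 6.2 FPKM in WT libraries. CKO12 was below 3 of the WT libraries, and Mki67 was not called (difference 0.46, SE 0.18, limma adjusted p = 0.0538). It was called higher without CKO12 (difference 0.61, limma adjusted p = 0.00598), without WT3 (0.53, limma adjusted p = 0.0414), and with upper-quartile, median-of-ratios and authors' scaling (0.59, 0.69 and 0.83).

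Ratios between genes whose proteins work as partners differed from KO to WT libraries in some pairs and overlapped in others. Of 11 ratios between partners, taken within each library and chosen after the values were seen, 6 did not overlap between the groups and 5 did. The share of other gene pairs without overlap was not computed, so this count is no result about partners. Smc4 over Smc2 was 1.42, 1.32, 1.31, 1.43 and 1.17 in KO libraries, against 1.87, 1.86, 1.85, 1.91 and 1.603 in WT libraries. Ncapg over Ncaph was 0.601 ± 0.0256 in KO and 0.725 ± 0.05102 in WT libraries, so both condensin ratios were lower in every KO library. Cks2 over Cks1b was 1.34 ± 0.121 in KO and 1.78 ± 0.153 in WT libraries, without overlap. Incenp over Aurkb was 0.835 ± 0.0869 in KO and 1.36 ± 0.258 in WT libraries, also without overlap. Nuf2 over Ndc80 was higher in every KO library, at 1.24 ± 0.0829 in KO and 0.949 ± 0.0863 in WT libraries. Cdca8 over Aurkb overlapped, at 1.16 ± 0.0565 in KO and 1.18 ± 0.19 in WT libraries. Birc5 over Aurkb, Spc24 over Spc25, Ncapd2 over Ncaph and Racgap1 over Kif23 overlapped as well.

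**Figure D3:**
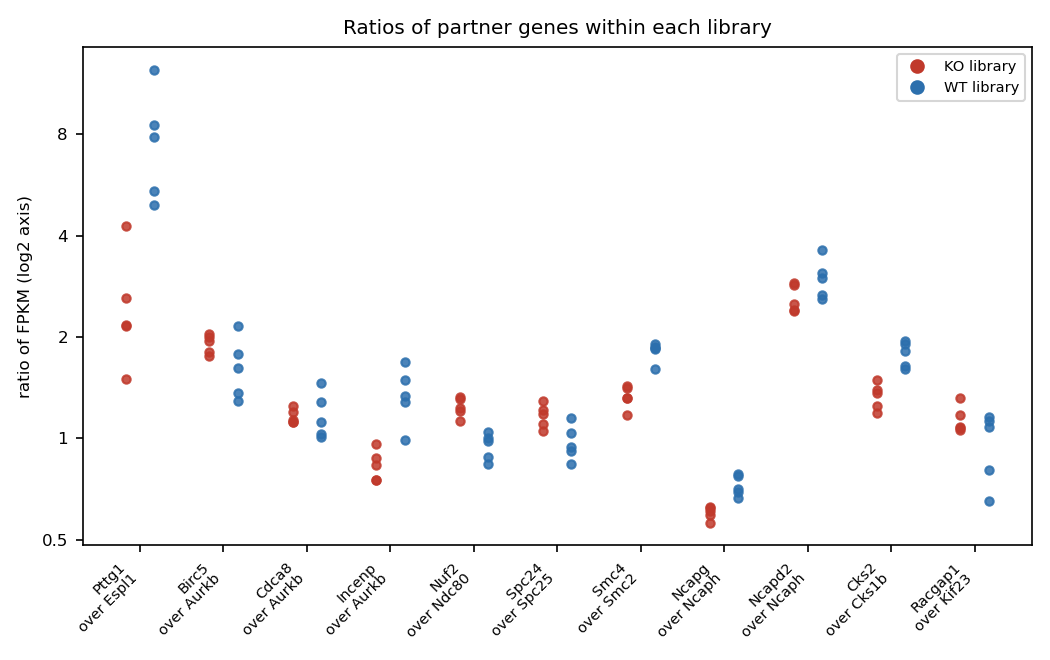
Ratio of FPKM between partner genes within each library (vertical axis, log2 scale), with KO libraries in red on the left and WT libraries in blue on the right of each pair. Pttg1 over Espl1, Incenp over Aurkb, Smc4 over Smc2, Ncapg over Ncaph and Cks2 over Cks1b are lower, and Nuf2 over Ndc80 is higher, in every KO library.

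Within each genotype a single library was low in most mitotic genes. CKO12 was the lowest KO library in 50 of the 55 genes and WT5 the lowest WT library in 44. CKO8 was the highest KO library in 38 genes. The 55 genes summed to 2879, 3175, 2921.5, 2274 and 2834 FPKM in the KO libraries, which was 0.312%, 0.352%, 0.333%, 0.235% and 0.311% of each library's FPKM total. They summed to 1517.5, 1505, 1631, 1063 and 1350 FPKM in the WT libraries, which was 0.197%, 0.192%, 0.17%, 0.13% and 0.165%. The sums did not overlap between genotypes. Against the mean of the other KO libraries, CKO12 had a median deviation of -0.48 on the log2(FPKM + 1) scale over the 55 genes, and of -0.11 over all genes tested. Without CKO12, 51 of the 55 genes were called higher, with a median difference of 1.02. Without WT5, the number called higher was 49 and the median 0.82. Of all genes tested, 6107 were called in either direction without CKO12 and 5617 without WT5, against 6502 with all libraries. The share of all genes called higher was not computed for these fits.

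**Figure D4:**
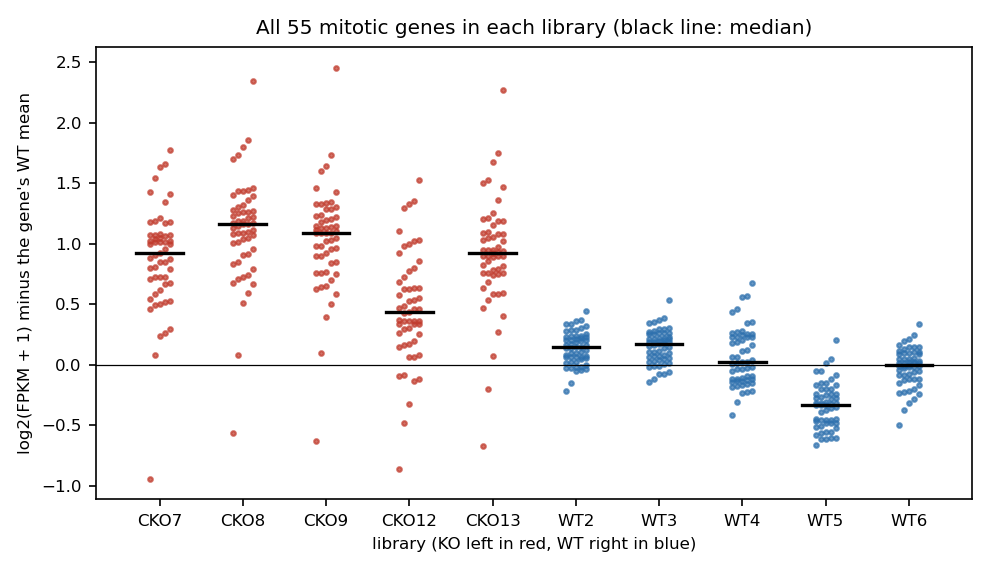
log2(FPKM + 1) of each of the 55 mitotic genes minus that gene's mean over the WT libraries (vertical axis), for the 5 KO libraries (red, left) and the 5 WT libraries (blue, right), with the median as a black line. Medians lie at 0.44 in CKO12 and 0.92 to 1.16 in the other KO libraries, and WT5 is the lowest WT library at -0.33.

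Transcript length moved with some of these differences. Over the 55 genes the difference fell with the length of the longest annotated transcript (Spearman -0.44, a description over genes that share libraries). Over all genes tested the same Spearman value was -0.16. Over the 55 genes the difference also rose with mean FPKM (Spearman 0.32), and log2(FPKM + 1) understates changes at low level. Length and level were not separated. The 28 longer genes had a median difference of 0.82 and the 27 shorter genes one of 1.003, beside -0.32 and -0.16 for the longer and shorter genes among all tested. The cut was at each set's own median length, 3586 bases for the 55 genes and 2895 bases for all tested. With the same cuts, the deficit of CKO12 was a median of -0.59 in the longer and -0.45 in the shorter mitotic genes, beside -0.18 and -0.02 among all genes tested. Length, level and RNA quality were not modelled, and their part in the differences was not tested. Of the 55 genes, 31 overlap another annotated gene and 22 one on the other strand, among them Cdc25b, Cdc20, Ube2c, Bub3 and Kif20a. For those the reads of the partner cannot be told apart without the strand setting.

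Markers of other cells moved with genotype beside the mitotic genes. All 10 erythroid markers without globins were called higher, where 12.6% of all genes tested were. Their sums were 805 to 1253 FPKM in KO and 136 to 435 FPKM in WT libraries, and no marker was at 0 in all libraries. Erythroid progenitors divide often, and the part of such cells in the mitotic differences was not tested. By library, the erythroid markers summed to 1253, 1107, 805, 955 and 933 FPKM in KO libraries, against 172, 285, 190.5, 136 and 435 FPKM in WT libraries. WT5 was the lowest WT library in both the erythroid and the mitotic sum, and CKO8, with the highest mitotic sum, was next to the highest in the erythroid sum. Among KO libraries CKO9 was the lowest in the erythroid sum and CKO12 in the mitotic sum. CKO7 and WT6 had the highest erythroid sums of their genotypes without having the highest mitotic sums. All 8 megakaryocyte and platelet markers and all 6 macrophage markers were called lower in KO, where 33.8% of all genes tested were. Pf4 kept its call under 1 of the 4 scalings, and the other markers of both lists kept theirs under all 4. Among genes of the sort and of stem cells, Slamf1, Procr, Mecom, Hlf and Fgd5 were called lower in KO, and Ly6a, Kit, Cd34, Cd48 and Flt3 were not called. The calls of Slamf1 and Hlf were kept under all 4 scalings, and those of Procr, Mecom and Fgd5 under 2 of the 4. Slamf1, which encodes the sort marker CD150, averaged 10.9 ± 2.2 FPKM in KO and 21.5 ± 4.65 FPKM in WT libraries. The 6 B cell markers summed to 20.2 to 34 FPKM in KO and 32.7 to 55.9 FPKM in WT libraries. Both B cell markers tested, Cd79b and Vpreb1, were called lower (-0.61 and -1.101, limma adjusted p = 0.013 and 0.00937). The call of Cd79b was kept under 2 of the 4 scalings and that of Vpreb1 under all 4. The 6 T and NK cell markers summed to 67.6 to 128.1 FPKM in KO and 61.7 to 165 FPKM in WT libraries, and neither of those tested, Cd4 and Nkg7, was called. None of the granulocyte or bone matrix markers was called, although their median differences were unlike, at -1.11 for granulocyte and -0.04 for bone matrix markers. Without the 3 libraries highest in granulocyte markers (CKO8, WT3 and WT5), 37 of the 55 mitotic genes were called higher and Pttg1 lower, with a median difference of 0.76. Without the 3 highest in bone matrix markers (CKO12, CKO13 and WT6), 50 were called higher and Pttg1 lower, with a median of 1.05. Both sets were chosen after the data were seen. Of all genes tested, 4063 and 4726 were called in either direction in these fits, against 6502 with all libraries. The share of all genes called higher was not computed for them.

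Other genes of mitosis were called in shares that varied from list to list. Of 108 further mitotic genes in 9 lists, all tested, 43 were called higher and 4 lower, with a median difference of 0.32, beside the 12.6% higher and 33.8% lower of all genes. Of 16 other mitotic regulators, such as Cdk1 and its cyclins, 12 were higher and 1 lower, with a median of 0.72. Ccnb1, which encodes cyclin B1, averaged 114.1 ± 16.5 FPKM in KO and 39.7 ± 6.47 FPKM in WT libraries, and Cdk1 averaged 139.8 ± 26.3 FPKM in KO and 70.1 ± 8.496 FPKM in WT libraries. Ensa, an inhibitor of the phosphatase PP2A-B55, was lower (difference -0.48, limma adjusted p = 0.00376), a call kept under 3 of the 4 scalings. Of 24 other spindle and midbody genes 10 were higher and 2 lower. Psrc1, a microtubule protein, had the largest difference of the 108, at 50.1 ± 13.8 FPKM in KO and 12.99 ± 1.903 FPKM in WT libraries (difference 1.83, limma adjusted p = 4.66e-05). Kif2a, a kinesin that also acts outside mitosis, had the lowest, at 4.07 ± 0.546 FPKM in KO and 7.52 ± 2.67 FPKM in WT libraries (difference -0.71, limma adjusted p = 0.00785), a call kept under 2 of the 4 scalings. Numa1, a spindle pole and nuclear matrix protein, was also called lower (difference -0.61), a call kept under 3 of the 4 scalings. In the authors' deposited table none of Ensa, Kif2a and Numa1 was lower at an adjusted p under 0.05. Their log2 fold changes there were 0.14, -0.15 and -0.16 (adjusted p = 0.317, 0.366 and 0.585).

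Beside the outer kinetochore genes above, 8 of 13 others were higher, led by Nsl1 of the MIS12 complex (difference 0.96). Of 16 genes of the inner kinetochore network, which stays on centromeres throughout the cell cycle, 5 were higher and 1 lower, with a median of 0.26. Cenpi had the largest difference there (0.87), and Itgb3bp, also known as CENP-R, was lower (-0.38, limma adjusted p = 0.048), a call kept under 1 of the 4 scalings. In the authors' deposited table Itgb3bp had a log2 fold change of 0.02 (adjusted p = 0.936). Of the 4 genes that load CENP-A, only Oip5 was called higher, and it overlaps Nusap1 on the other strand. Of the condensin II genes, Ncaph2 and Ncapg2 were higher, and Ncapd3 was not called (difference 0.42). The augmin list, whose proteins branch microtubules, had 1 of 8 called higher (Haus5), and the APC/C list had 2 of 17, the subunit gene Anapc5 and Fbxo5. Both shares are near the 12.6% of all genes called higher with the values as deposited, and are no result about these lists. The authors' deposited table, where 17.1% of genes were higher, differed. All augmin genes were higher there at an adjusted p under 0.05, with log2 fold changes from 0.35 (Haus2) to 0.75 (Haus5). So were the APC/C genes except Anapc10, Anapc11, Anapc16 and Ube2s. Calls in these lists thus depended on the scaling and the test. Fbxo5 encodes the inhibitor Emi1 and was at 29.6 ± 5.34 FPKM in KO and 13.6 ± 2.61 FPKM in WT libraries (difference 1.07, limma adjusted p = 0.000271).

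Of the 7 genes for MuvB and its activating partners, 2 were higher. Mybl2, which encodes B-MYB, was at 22.7, 23.02, 14.8, 16.01 and 20.4 FPKM in KO libraries, against 8.81, 9.3, 7.21, 5.12 and 12.1 FPKM in WT libraries. The groups did not overlap (difference 1.12, SE 0.20, limma adjusted p = 0.000837). Foxm1 averaged 4.73 ± 0.7203 FPKM in KO and 2.71 ± 0.359 FPKM in WT libraries, without overlap (difference 0.62, limma adjusted p = 0.00211). The MuvB core genes Lin9, Lin37, Lin52, Lin54 and Rbbp4 were not called, with differences of 0.11, -0.24, -0.17, -0.05 and 0.28. Lin9 and Rbbp4 stayed so under 1 of the 4 scalings, and the other core genes under all 4. In the authors' deposited table Lin9, Lin54 and Rbbp4 were higher (adjusted p = 0.00207, 0.0113 and 2.37e-12). Their log2 fold changes there were 0.50, 0.45 and 0.85. Lin37 and Lin52 had 0.22 and 0.23 there (adjusted p = 0.197 and 0.208). The differences between these lists were not tested.

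**Figure D5:**
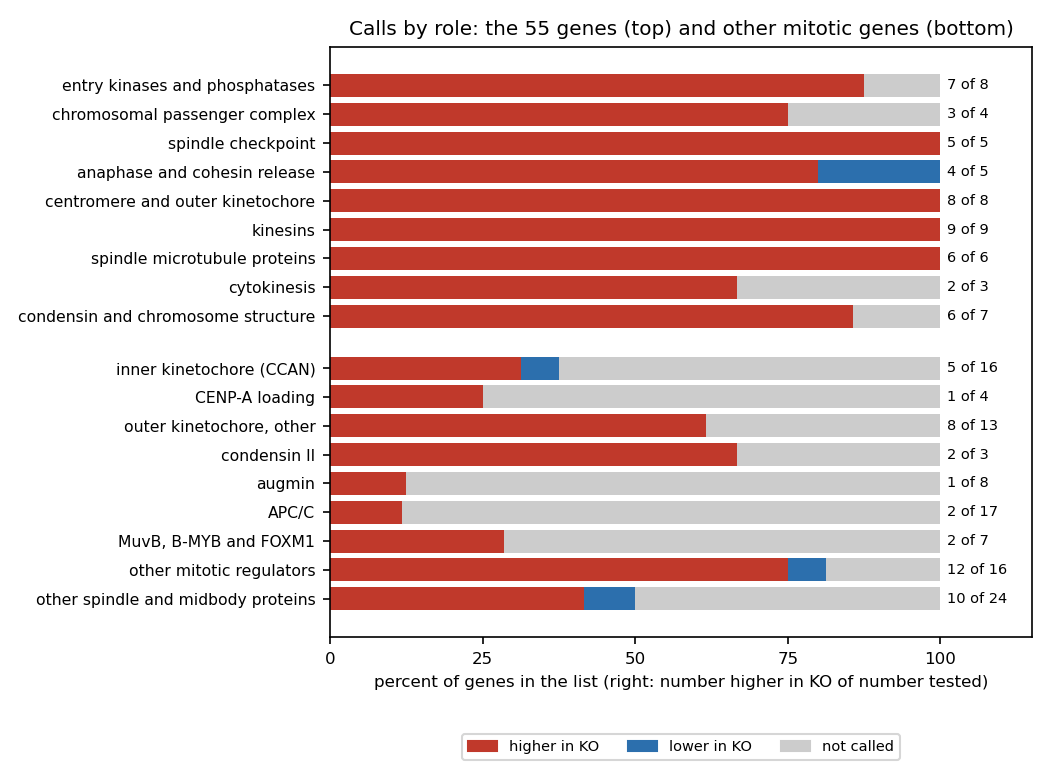
Share of genes (horizontal axis, percent) called higher in KO (red), called lower (blue) or not called (grey) for the 9 roles of the 55 genes (top) and 9 lists of other mitotic genes (bottom), with the number higher of the number tested. With the values as deposited, 9 of 9 kinesins and 8 of 8 outer kinetochore genes among the 55 were called higher. Of other outer kinetochore genes 8 of 13 were. In the same fit, 2 of 17 for the APC/C list and 1 of 8 for augmin are near the 12.6% of all genes tested.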

How the data were processed

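Per the submitters' processing notes, reads were handled with HTSeq, Cufflinks 2.1.1 and Bowtie 0.12.9 against mm10, with no role stated for any tool. The authors deposited a single table of 52097 genes with 10 library columns, whose unit is not named in the header. The values were taken as FPKM made by the authors, because the values have 2 decimals, sum to 770789 to 966648 per library, and the deposited mean normalized count (a signal) per FPKM rises with transcript length (Spearman 0.793 over 6877 genes). The authors' log2 fold changes and standard errors, Wald score, p-value and adjusted p-value were deposited under DESeq2's column names, and their sign, checked against the group means, is KO over WT. Column names gave the genotype but not the titled sample, so columns were replicates of a group with no number of their own.

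Genes with a mean of 1 FPKM or more over all libraries were fitted with limma 3.58.1 (R 4.3.3) on log2(FPKM + 1), with genotype as the only term and trend and robust options. Values were not rescaled. P-values were Benjamini-Hochberg adjusted over 14007 genes. A filter of 10 FPKM in 5 libraries would have kept 42 of the 55 genes, 4 of them with no WT library at 10 FPKM. The fit was tested on simulated data. Positions, overlaps and lengths came from GENCODE M21 (mm10), which held all 52097 identifiers, and promoter windows from RefSeq. Cenps was matched as Apitd1 through RefSeq synonyms. The members, roles and lists were chosen with earlier results of these data known, so no list was tested. In each role the genes with the largest and smallest differences are given by library, with every gene not called. Pseudocounts, filters, 4 scalings, limma options and leaving out libraries were tried as alternatives.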

Additional observations from a re-analysis of the deposited data

Results flagged for a closer look

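Of 110 groups of 5 libraries (each of the 55 genes in each genotype), 8 held a library whose gap to its nearest neighbour took up an unusually large part of the group's range (Dixon's test). Chance flags about 1 in 20 such groups. CKO12 was low in Cdc20 (125.3 FPKM, next 162 FPKM), Kif15 (19.7 FPKM, next 25.2 FPKM) and Spag5 (8.89 FPKM, next 16.3 FPKM). WT5 was low in Cenpa (48.5 FPKM, next 66.6 FPKM), Kif22 (17.6 FPKM, next 29.5 FPKM) and Ncapg (5.8 FPKM, next 8.97 FPKM). WT4 was high in Pttg1 (53.8 FPKM, next 38.2 FPKM), and without WT4 Pttg1 was still called lower in KO. WT3 was high in Ska1 (4.68 FPKM, next 2.63 FPKM).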

How the results depend on the processing

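No paired analysis was possible because the library columns carry other numbers than the sample titles. Of the 55 genes, 46 were called higher without each library in turn, and the total called higher ranged from 47 (without CKO8) to 51 (without CKO12). Pttg1 was lower each time (1 gene), the median difference of the 55 genes ranged from 0.81 to 1.02, and 5617 to 6381 genes of the whole table were called, against 6502 with all libraries. The median difference of the 55 genes was 1.13 after median-of-ratios scaling and 1.28 after the authors' scaling, where 0 of the 55 were called lower by limma (Pttg1 had limma adjusted p = 0.0648). Among all genes tested, 3642 were called with the filter of 10 FPKM in 5 libraries, where fewer genes were tested, and 4063 without the 3 libraries highest in granulocyte markers, where fewer samples were used. Cdc25b changed sign without being called, except under the authors' scaling. Its difference was 0.080, 0.19 and 0.32 with upper-quartile, median-of-ratios and authors' scaling, 0.11 without the libraries highest in bone matrix markers, and -0.091 to 0.014 without single libraries. With no filter, 46 of the 55 were called higher, and Espl1, Kif20b, Kif23 and Smc4 were not. Smc4 was also not called by limma without trend and robust options (adjusted p = 0.0521). Pseudocounts of 0.1 and 5 changed no call among the 55, with medians of 0.96 and 0.72. With library quality weights 52 were called higher. The depth of each library is unknown, so no interval that needs counts can be given.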
